A study of Rattus norvegicus with 32 samples.

Results

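The blood-brain barrier transporters examined were 10 genes chosen by name: the nutrient carriers Slc2a1, Slc7a5, Slc3a2, Slc16a1 and Mfsd2a, the efflux pumps Abcb1a, Abcg2 and Abcc4, and the organic anion carriers Slco1a4 and Slco2b1. They were looked up by symbol in a table of 22587 rat genes. Of the 10 genes, 9 had a row under their symbol, and Abcb1a was not analysed here. All 9 passed the filter on low values, a mean normalized count of 10 or more over the libraries of a fit. Their lowest value in any library was 92.3 normalized counts, for Mfsd2a.

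The animals were 13-week-old Wistar Kyoto rats. They had a sham operation or total bilateral adrenalectomy (ADREX), which removes both adrenal glands and with them the main source of corticosteroid hormones and circulating adrenaline. A 4-hour exposure followed, either to ozone at 0.8 ppm or to filtered air, and brainstem and hypothalamus were collected directly afterwards. The 8 groups of tissue, operation and exposure held 4 mRNA libraries each, 32 in all. No source used here names a hormone replacement. The labels do not say that each library came from a separate animal, so the p-values reflect how far the libraries of a group differed, which may be technical variation. Both tissues carry the same replicate numbers, which may mark the same animals, so agreement between tissues may not be independent.

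Brain capillary endothelial cells are sealed by tight junctions, so that water-soluble nutrients enter the brain through carrier proteins, while ATP-driven pumps return many drugs and metabolites to the blood. Glucose crosses through GLUT1 (Slc2a1), large neutral amino acids through the LAT1 heterodimer of Slc7a5 and Slc3a2, lactate and ketone bodies through MCT1 (Slc16a1), and docosahexaenoic acid as a lysophospholipid through Mfsd2a. Several of these genes are also expressed in glia or neurons, so a whole-tissue level is not that of the endothelium alone. In such bulk samples fewer cells of a type and less RNA per cell cannot be told apart.

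Promoter windows are shown for 3 of the 4 members that differed between ADREX and sham rats after ozone in both tissues. The fourth of these, Mfsd2a, had no entry in the table used. Each window runs from 250 bases before to 50 bases after the annotated start, 5′ to 3′ on the gene's strand, from RefSeq with build GRCr8. Capitals mark the letters ACGTG on either strand, the core bound by hypoxia-inducible factors, and the E-box CACGTG, which contains it; the Abcg2 window holds neither and has no capitals.
Abcg2, chr4:89075224-89075523, plus strand: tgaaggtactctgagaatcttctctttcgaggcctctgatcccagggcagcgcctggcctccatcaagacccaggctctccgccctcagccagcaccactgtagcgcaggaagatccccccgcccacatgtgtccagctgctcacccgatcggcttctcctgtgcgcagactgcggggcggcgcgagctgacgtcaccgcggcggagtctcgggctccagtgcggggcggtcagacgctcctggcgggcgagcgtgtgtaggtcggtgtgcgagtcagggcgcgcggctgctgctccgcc
Slco1a4, chr4:176495797-176496096, minus strand: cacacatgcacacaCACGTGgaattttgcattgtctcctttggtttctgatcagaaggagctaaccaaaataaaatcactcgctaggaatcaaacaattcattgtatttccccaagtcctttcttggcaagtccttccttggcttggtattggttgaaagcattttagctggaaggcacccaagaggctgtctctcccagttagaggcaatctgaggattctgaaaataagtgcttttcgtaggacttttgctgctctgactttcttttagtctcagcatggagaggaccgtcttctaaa
Slco2b1, chr1:163408016-163408315, minus strand: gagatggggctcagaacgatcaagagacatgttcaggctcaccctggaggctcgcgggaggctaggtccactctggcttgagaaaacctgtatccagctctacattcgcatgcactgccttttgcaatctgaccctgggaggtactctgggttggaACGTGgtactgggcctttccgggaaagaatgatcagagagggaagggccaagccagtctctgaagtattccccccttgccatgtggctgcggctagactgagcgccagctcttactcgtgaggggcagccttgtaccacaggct
The glucocorticoid receptor half-site AGAACA, searched on both strands, occurred in none of the windows found for the members, and neither did the Lef/Tcf core CTTTGA. Among all 33469 windows of the same length, 20.7% held AGAACA, 16.1% held CTTTGA, 19.3% held ACGTG and 6.42% held CACGTG. The capitals of Slco1a4 are an E-box 236 bases before the start, and those of Slco2b1 begin 94 bases before it. Single E-boxes also lay in the windows of Slc7a5 and Slc16a1. ACGTG cores outside an E-box lay in those of Slc2a1 (51 bases before the start), Slc16a1 (5 bases after it) and the second of 2 Slc3a2 windows (188 and 105 bases before it). The Slco1a4 window was 43% G and C, against 68% for Abcg2 and 56.7% for Slco2b1. These matches describe the letters only.

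The libraries held 6.44 to 12.4 M recovered reads. Regional genes followed the labels: Hoxb5, a hindbrain patterning gene, read 153 to 749 normalized counts in brainstem and 0 to 7.51 in hypothalamus, while vasopressin (Avp) read 189 to 581 in hypothalamus and at most 5.90 in brainstem. The tight junction gene Cldn5, a defining endothelial marker, was detected in every library, at 196 to 662 in brainstem and 299 to 468 in hypothalamus. Several libraries stood apart. Liver transcripts (18 genes such as albumin) summed to 38.1 to 1428 reads per M in 28 libraries and to 3188 to 4221 in 4, namely sham ozone 18 of both tissues, hypothalamus sham air 2 and hypothalamus ADREX air 68. Brainstem ADREX ozone 81 had the highest sum of 14 endothelial genes, 5629 normalized counts against 2888 to 4450 in the other brainstem libraries, and the lowest sum of 10 myelin genes, 284483 against 360812 to 473043. Hypothalamus ADREX ozone 84 had the highest myelin sum of its tissue, 205399.

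For ozone against air in sham rats limma called 1 of the 9 transporters, Mfsd2a, which roughly doubled in both tissues. In brainstem Mfsd2a read 339, 432, 302 and 335 normalized counts in sham air libraries and 778, 818, 850 and 752 after ozone. In hypothalamus the values were 239, 252, 189 and 198 in air and 456, 386, 648 and 514 after ozone. Every ozone library was above every air library in both tissues. The log2 change was 1.19 ± 0.20 (SE; limma adjusted p = 0.00555) in brainstem, a 2.29-fold rise, and 1.17 ± 0.20 (limma adjusted p = 0.00573) in hypothalamus, a 2.25-fold rise. The rise differed between tissues by -0.02 (95% interval -0.63 to 0.58; hypothalamus minus brainstem). Over all genes tested, 0.979% were called in this comparison in brainstem and 1.59% in hypothalamus. With 9 genes, 1 call is a result about Mfsd2a and not about the set: the members' median log2 change was 0.09 in brainstem and 0.18 in hypothalamus, beside 0.00 for all genes in each. For the difference between tissues limma called 0% of 14533 genes and none of the members, of which 0 had an unadjusted p under 0.05, and edgeR and DESeq2 also called none.

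The organic anion carriers had lower mean values after ozone in sham rats, without passing the limma test. Slco1a4, a carrier of organic anions, bile acids and steroid conjugates, read 1162, 1253, 1588 and 1334 normalized counts in brainstem sham air and 768, 1137, 732 and 774 after ozone. In hypothalamus it read 825, 947, 768 and 877 in air and 538, 1160, 414 and 510 after ozone. Sham ozone 18, which was rich in liver transcripts, was the highest of its group in both tissues, and in hypothalamus it was above all air libraries. The log2 change was -0.66 ± 0.17 (SE; limma adjusted p = 0.0828) in brainstem and -0.50 ± 0.23 (limma adjusted p = 0.373) in hypothalamus. Without sham ozone 18 it was -0.81 in each tissue, and both then passed (limma adjusted p = 0.0198 and 0.00476), while in hypothalamus it was -0.32 without sham ozone 19 (limma adjusted p = 0.525). The brainstem change also passed without ADREX ozone 81, a library outside the comparison that enters its spread (limma adjusted p = 0.0331). DESeq2 called the brainstem change (adjusted p = 0.0201), and edgeR did not. The Slco1a4 change passed in 7 of 28 alternatives in brainstem and 5 of 29 in hypothalamus. Over these alternatives it ranged from -0.81 to -0.57 in brainstem and from -0.81 to -0.32 in hypothalamus.

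Slco2b1, a carrier of sulfated steroids and other anions, also had lower means after ozone in sham rats. Its brainstem values were 438, 402, 346 and 498 in sham air and 303, 406, 287 and 236 after ozone. Its hypothalamus values were 404, 543, 397 and 376 in air and 297, 294, 283 and 296 after ozone. The hypothalamus groups did not overlap, and in brainstem only ozone library 18 lay within the air range. Log2 changes were -0.47 ± 0.15 (SE; limma adjusted p = 0.236) in brainstem and -0.54 ± 0.14 (limma adjusted p = 0.0618) in hypothalamus. In brainstem the change passed without library 18 (-0.61, limma adjusted p = 0.0442), and in hypothalamus without ADREX ozone 84, which enters only the spread (limma adjusted p = 0.0164). DESeq2 called the hypothalamic change (adjusted p = 0.00972), and edgeR did not. The Slco2b1 change passed in 4 of 28 alternatives in brainstem and 4 of 29 in hypothalamus. Over these alternatives it ranged from -0.62 to -0.35 in brainstem and from -0.60 to -0.42 in hypothalamus.

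Slc2a1, the glucose carrier, did not pass the limma test in either tissue. In hypothalamus it read 2487, 2756, 2756 and 2735 normalized counts in sham air and 4258, 5924, 4964 and 4203 after ozone, with no overlap. In brainstem the values were 2921, 4261, 4988 and 3338 in air and 6392, 4180, 5908 and 5278 after ozone, and the ranges overlapped. Log2 changes were 0.84 ± 0.23 (SE; limma adjusted p = 0.0869) in hypothalamus and 0.50 ± 0.36 (limma adjusted p = 0.924) in brainstem. The hypothalamic test shares its spread with hypothalamus ADREX ozone 84, a library outside the comparison, in which Slc2a1 read 6567. Without that library the same log2 change passed (limma adjusted p = 0.00261), and it also passed without ADREX ozone 82 (limma adjusted p = 0.0461). With the compared groups alone it passed too (limma adjusted p = 0.00491). DESeq2 called the hypothalamic change (adjusted p = 0.0178), and edgeR did not. The Slc2a1 change passed in 6 of 29 alternatives in hypothalamus and 0 of 28 in brainstem.

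**Figure D1:**
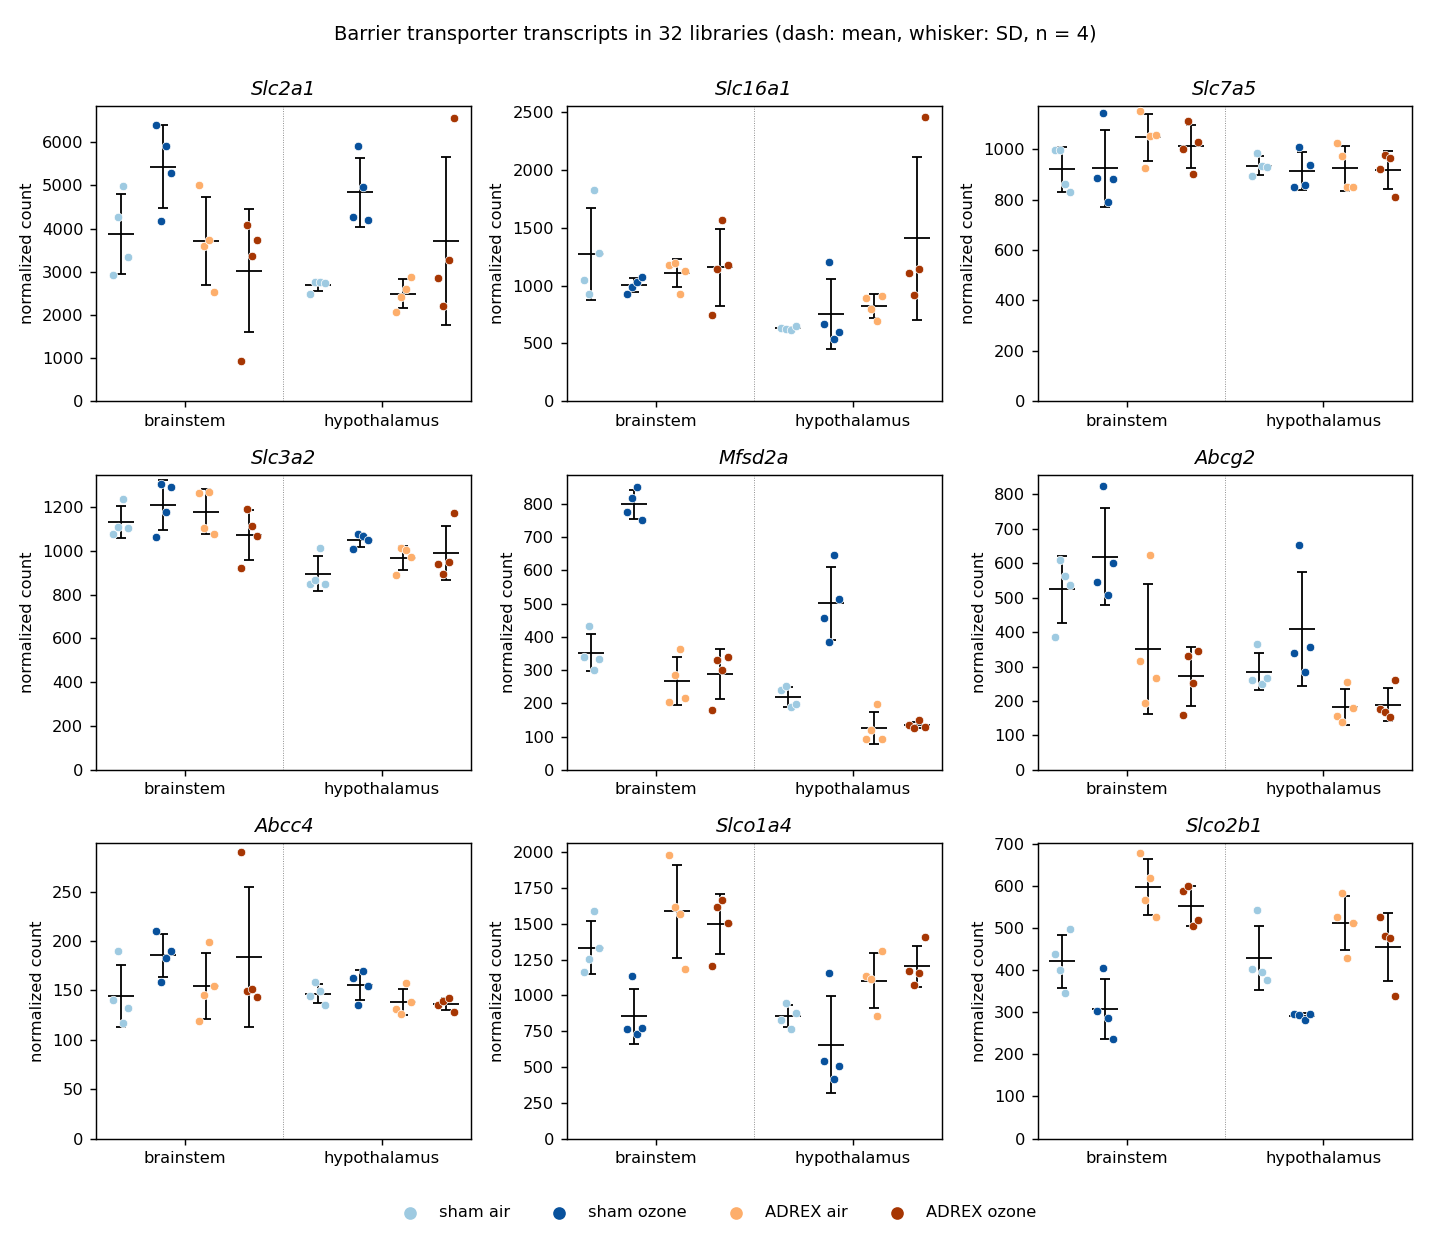
Normalized counts (vertical axes, linear, from 0) of the 9 measured transporters in all 32 libraries, by tissue and group. Points are libraries, dashes are group means and whiskers are SD over 4 libraries. Mfsd2a after ozone in sham rats (752 to 850 in brainstem, 386 to 648 in hypothalamus) lies above all its other groups of the same tissue, while Slco1a4 and Slco2b1 have their lowest group means there.

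After ADREX no transporter was called between ozone and air in either tissue. Limma called 0% of all genes tested in brainstem and 0% in hypothalamus. At an unadjusted p under 0.05 there were 0 and 1 members, beside 851 of 14408 and 1163 of 14483 genes tested. EdgeR and DESeq2 called no member. Mfsd2a read 204, 286, 364 and 218 normalized counts in ADREX air and 181, 332, 300 and 341 in ADREX ozone in brainstem. In hypothalamus it read 92.3, 119, 197 and 93.4 in air and 135, 127, 149 and 130 after ozone. The groups overlapped in both tissues, and the log2 change was 0.10 (95% interval -0.32 to 0.52) in brainstem and 0.18 (-0.25 to 0.61) in hypothalamus. The member with the unadjusted p under 0.05 was Slc16a1, the monocarboxylate carrier. In hypothalamus it read 895, 796, 692 and 911 in ADREX air and 1105, 922, 1146 and 2456 after ozone, the last value being that of library 84 (log2 change 0.67 ± 0.26, limma adjusted p = 0.586). Without library 84 the change was 0.36 (limma adjusted p = 1).

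The test of whether the ozone change differed between operations called none of the members, against 0.201% of all genes in brainstem and 0.138% in hypothalamus. In this test Mfsd2a in both tissues and Slco1a4 in brainstem had an unadjusted p under 0.05. The shares of all genes just given are for adjusted calls. The share at the unadjusted threshold is not given here, so this is no result about the set. For Mfsd2a the difference (ADREX minus sham) was -1.09 (SE 0.28, 95% interval -1.68 to -0.50, unadjusted p = 0.00124, limma adjusted p = 0.202) in brainstem. In hypothalamus it was -0.99 (SE 0.29, interval -1.60 to -0.38, unadjusted p = 0.00317, limma adjusted p = 0.410). DESeq2 called 1 member in brainstem, Mfsd2a, and none in hypothalamus, and edgeR called none in either. For Slco1a4 the difference was 0.59 ± 0.24 (SE; limma adjusted p = 0.798) in brainstem and 0.63 ± 0.32 (limma adjusted p = 1) in hypothalamus. Without hypothalamus sham ozone 18 the latter was 0.95 and passed (limma adjusted p = 0.0422).

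**Figure D2:**
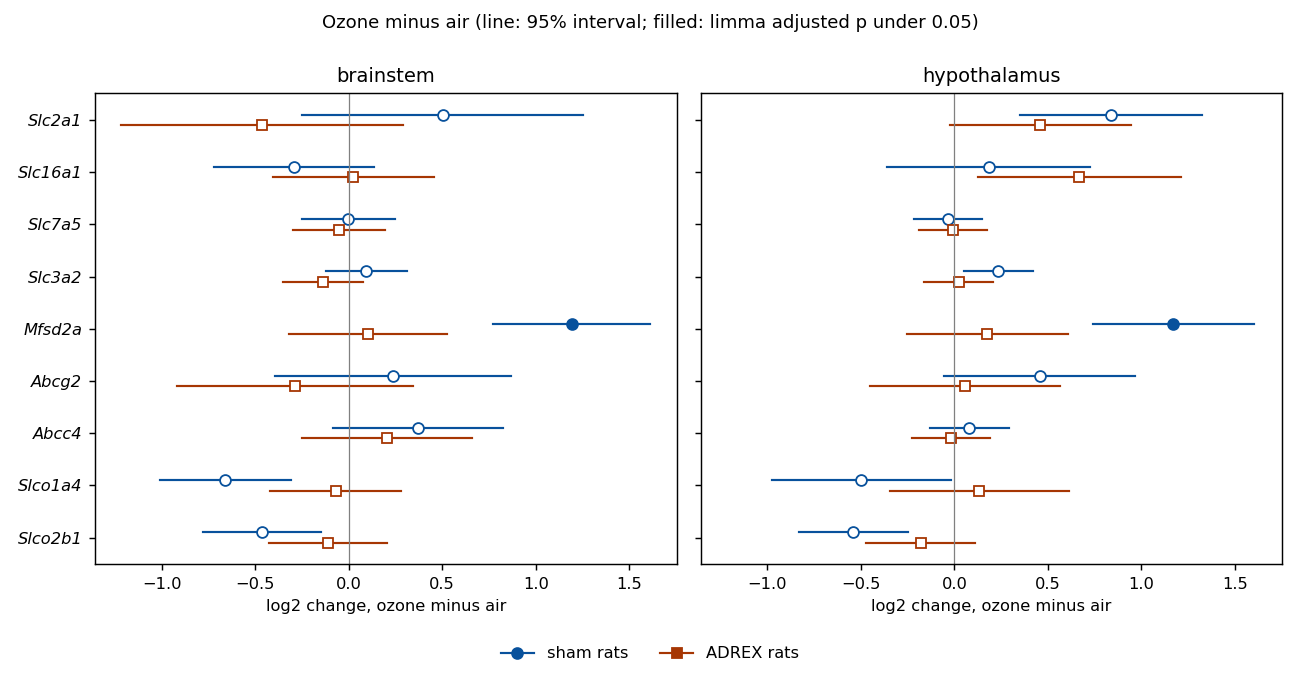
Log2 change from air to ozone (horizontal axis) of each transporter in sham rats (circles) and ADREX rats (squares), for brainstem and hypothalamus. Lines are 95% intervals from limma, and filled symbols have an adjusted p under 0.05. Only the sham Mfsd2a values, 1.19 and 1.17, are filled, and the ADREX Mfsd2a intervals include 0.

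By the limma test, ADREX and sham rats that both breathed ozone differed in 4 of the 9 transporters in each tissue, the same 4 genes with the same signs. Mfsd2a and Abcg2 were lower in ADREX rats, and Slco1a4 and Slco2b1 were higher. Over all genes tested, 2.44% were called in brainstem and 2.24% in hypothalamus; the members were chosen with results of these data known. Their median log2 difference was near 0 (-0.07 and -0.09), since 2 fell and 2 rose. This comparison shares its sham ozone libraries with the ozone comparison in sham rats above, so the values of both are not independent.

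Mfsd2a had the largest difference of the members in both tissues. Its 4 brainstem ADREX ozone libraries read 181 to 341 normalized counts against 752 to 850 in sham ozone, and in hypothalamus the ranges were 127 to 149 and 386 to 648. Neither pair of ranges overlapped. The log2 difference was -1.51 ± 0.20 (SE; limma adjusted p = 0.000341) in brainstem and -1.86 ± 0.20 (limma adjusted p = 5.56e-05) in hypothalamus. These are ratios of 0.351 and 0.276 of the sham ozone level.

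Abcg2 encodes the breast cancer resistance protein, an efflux pump on the blood-facing side of brain capillaries. In brainstem it read 545, 823, 508 and 601 normalized counts in sham ozone and 159, 332, 253 and 344 in ADREX ozone. In hypothalamus it read 340, 653, 283 and 357 in sham ozone and 176, 167, 153 and 260 in ADREX ozone. The groups were separate in both tissues. Sham ozone 18 was the highest in both tissues and brainstem ADREX ozone 81 the lowest in its group. The log2 difference was -1.22 ± 0.30 (SE; limma adjusted p = 0.0382) in brainstem and -1.06 ± 0.24 (limma adjusted p = 0.0253) in hypothalamus. In brainstem the call was lost when any of several libraries was left out: it was -1.08 without sham ozone 18 (limma adjusted p = 0.117) and -0.99 without ADREX ozone 81 (limma adjusted p = 0.0825). The same held for sham ozone 17, 19 and 20, ADREX ozone 83, sham air 4 and ADREX air 65 and 68, with limma adjusted p up to 0.101. In hypothalamus it was lost without sham ozone 20 or without ADREX ozone 81, 82 or 83, with limma adjusted p between 0.0589 and 0.0925.

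Slco1a4 in ADREX ozone read 1203, 1616, 1667 and 1508 normalized counts in brainstem, all above the 4 sham ozone values of 732 to 1137. In hypothalamus it read 1169, 1073, 1159 and 1412, and only sham ozone 18, at 1160, lay within that range. The log2 difference was 0.83 ± 0.17 (SE; limma adjusted p = 0.0108) in brainstem and 0.99 ± 0.23 (limma adjusted p = 0.0276) in hypothalamus. The brainstem call was lost without sham ozone 19 (0.76, limma adjusted p = 0.0505). The hypothalamic call was lost without sham ozone 17, 19 or 20, or without ADREX ozone 81, 83 or 84, with limma adjusted p between 0.0654 and 0.111, and edgeR did not call it (adjusted p = 0.0728). RefSeq lists Slco1a2 as another name of this gene, but the table had a separate Slco1a2 row, at 0 to 83.7 normalized counts, and reads shared by close copies of this family may have been split between rows, so its values are uncertain to that extent.

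Slco2b1 in ADREX ozone read 589, 600, 505 and 519 normalized counts in brainstem and 527, 481, 476 and 339 in hypothalamus. All were above the sham ozone values of the same tissue, 236 to 406 and 283 to 297. The log2 difference was 0.87 ± 0.15 (SE; limma adjusted p = 0.00321) in brainstem and 0.62 ± 0.14 (limma adjusted p = 0.0220) in hypothalamus. In hypothalamus the call was lost without sham ozone 17, 19 or 20 or ADREX ozone 81, 82 or 83, with limma adjusted p between 0.0544 and 0.0903.

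The other 5 transporters did not pass the limma test in this comparison. Slc2a1 read 926, 4083, 3352 and 3730 normalized counts in brainstem ADREX ozone, all below the sham ozone range of 4180 to 6392. The 926 belongs to library 81, which had the highest endothelial sum and the lowest myelin sum of its tissue. Their part in the Slc2a1 value was not tested. The log2 difference was -1.03 ± 0.36 (SE; limma adjusted p = 0.201), and without library 81 it was -0.53 (limma adjusted p = 0.267). In hypothalamus Slc2a1 read 2842, 2199, 3274 and 6567, the last being library 84. The log2 difference there was -0.49 ± 0.23 (SE; limma adjusted p = 0.406), and without library 84 it was -0.81 and passed (limma adjusted p = 0.00472), while without library 82 it was -0.28 (limma adjusted p = 0.564).

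Slc16a1 in hypothalamus had a log2 difference of 0.86 ± 0.26 (SE; limma adjusted p = 0.110). Its ADREX ozone values of 1105, 922, 1146 and 2456 compared with 670, 1203, 539 and 599 in sham ozone, where 1203 belonged to library 18. Without that library the difference was 1.11 and passed (limma adjusted p = 0.00988), and without ADREX ozone 84, which read 2456, it was 0.56 and did not (limma adjusted p = 0.225). DESeq2 called it (adjusted p = 0.0258), edgeR did not (adjusted p = 0.123). In brainstem Slc16a1 did not pass (0.16 ± 0.20, SE; limma adjusted p = 0.834).

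Both chains of the LAT1 transporter had the narrowest spans of group means among the members. Slc7a5, the catalytic light chain, read between 789 and 1154 normalized counts in all 32 libraries. Its group means spanned a ratio of 1.15, and the 95% intervals of its log2 differences between operations or exposures lay between -0.30 and 0.43. Slc3a2, the heavy chain that carries the light chain to the membrane, ranged from 847 to 1305. Its largest difference between exposures was 0.23 in hypothalamus sham rats (95% interval 0.05 to 0.42; limma adjusted p = 0.249). The log2 ratio of Slc7a5 to Slc3a2 lay between -0.40 and 0.07 in the 8 group means. Abcc4, the multidrug resistance protein that exports conjugated anions and nucleotides, read 117 to 210 in 31 libraries and 290 in brainstem ADREX ozone 81. None of its exposure or operation differences passed, and the sham ozone difference in brainstem was 0.37 (95% interval -0.08 to 0.83).

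**Figure D3:**
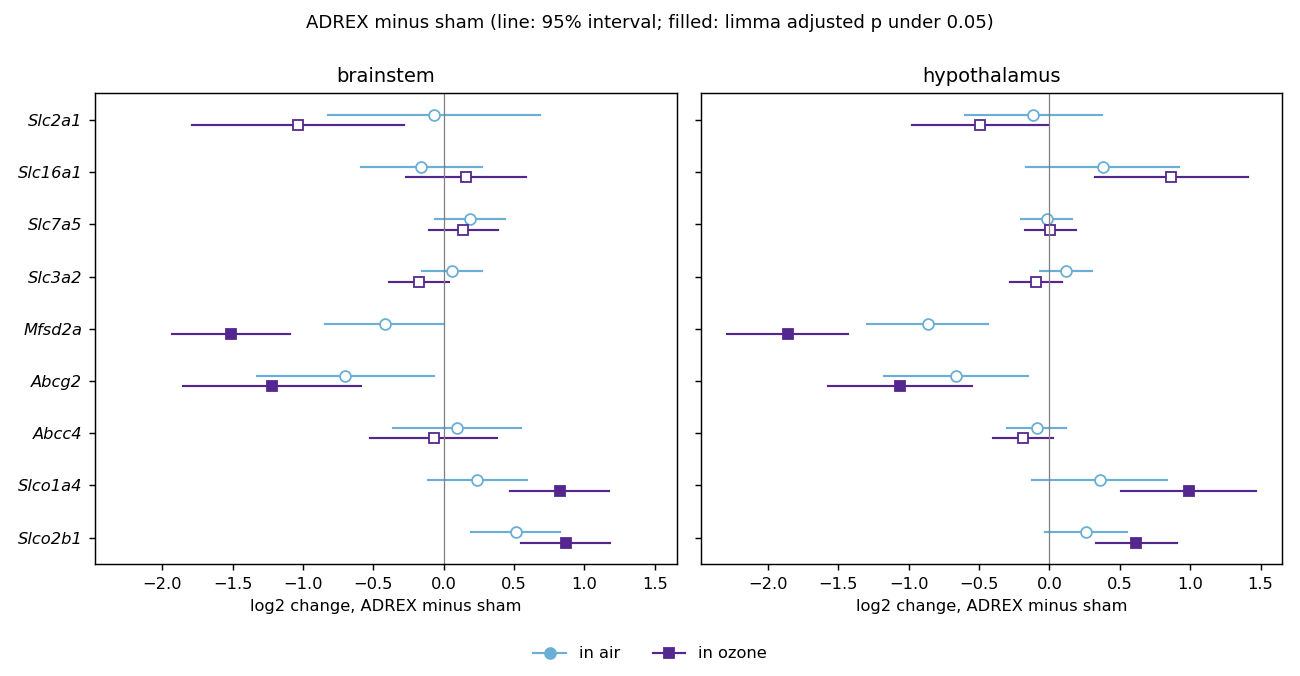
Log2 difference between ADREX and sham rats (horizontal axis) of each transporter in air (circles) and in ozone (squares), with 95% intervals from limma and filled symbols at an adjusted p under 0.05. In ozone the values of Mfsd2a (-1.51 and -1.86) and Abcg2 (-1.22 and -1.06) lie below 0 and those of Slco1a4 and Slco2b1 above it, while no value in air is filled.

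In air, ADREX and sham rats did not differ in any transporter by the limma test, which called 0% of all genes in brainstem and 0.0138% in hypothalamus. At an unadjusted p under 0.05 there were 3 of 9 members in brainstem and 2 of 9 in hypothalamus. Of all genes tested there were 545 of 14408 and 807 of 14483. EdgeR and DESeq2 called no member. Mfsd2a in hypothalamus was 125 ± 49.1 in ADREX air against 220 ± 30.8 normalized counts in sham air (SD, n = 4). Its log2 difference was -0.86 (95% interval -1.29 to -0.43; unadjusted p = 0.000585, limma adjusted p = 0.393). Library 67, at 197, was the ADREX value within the sham range of 189 to 252. Without it the difference was -1.10 and passed (limma adjusted p = 0.0246). This was the only 1 of 29 alternatives in which it passed, with differences from -1.10 to -0.68.

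Abcg2 read 386, 610, 564 and 538 normalized counts in brainstem sham air and 316, 195, 624 and 266 in ADREX air. The groups overlapped through library 67, the highest of all. The log2 difference was -0.70 ± 0.30 (SE; limma adjusted p = 1; -0.46 without library 66) in brainstem and -0.66 ± 0.24 (limma adjusted p = 0.794) in hypothalamus. Over the alternatives the Abcg2 difference ranged from -1.02 to -0.46 in brainstem and from -0.84 to -0.52 in hypothalamus. Slco2b1 in brainstem read 680, 567, 619 and 526 in ADREX air, all above the sham air range of 346 to 498 (log2 difference 0.51 ± 0.15, limma adjusted p = 0.866). Whether the ADREX difference was larger in ozone than in air is the interaction given above, where limma and edgeR called no member and DESeq2 called Mfsd2a in brainstem.

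Other genes of the barrier were read from lists named by function. Of 27 other barrier carriers and receptors, 2 differed between ADREX and sham rats in ozone in brainstem and 3 in hypothalamus, with medians of -0.0041 and -0.02. Of all genes tested, 2.44% and 2.24% were called in this comparison. Slc19a3, a thiamine carrier, was lower in ADREX rats (7.95 ± 2.46 against 82.7 ± 24.5 normalized counts in brainstem, SD, n = 4; 8.53 ± 3.99 against 69.5 ± 13.5 in hypothalamus). Its log2 difference was -3.22 (limma adjusted p = 8.98e-06) and -2.96 (limma adjusted p = 9.05e-05). Slco1c1, the thyroxine carrier of brain capillaries and a relative of both organic anion members, was higher by 0.70 (limma adjusted p = 0.00265) and 0.71 (limma adjusted p = 0.00351). Slc22a8, an organic anion exchanger, was higher by 0.81 in hypothalamus (limma adjusted p = 0.0285).

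In sham rats ozone called 4 of these 27 carriers in brainstem (1 higher, 3 lower) and 3 in hypothalamus (1 higher, 2 lower). Of all genes tested, 0.979% and 1.59% were called. Slc19a3 rose by 1.87 (limma adjusted p = 0.00511) and 1.57 (limma adjusted p = 0.0262), and Slco1c1 fell by 1.04 (limma adjusted p = 0.000105) and 1.05 (limma adjusted p = 0.000170) on the log2 scale. The other calls were falls in the taurine carrier Slc6a6 and the glutamine carrier Slc1a5 in brainstem, and in the zinc carrier Slc39a10 in hypothalamus. Among partners and paralogues of the members, 0 of 20 tested were called in brainstem and 1 of 21 in hypothalamus, where Slco4a1 rose by 1.33 (limma adjusted p = 0.0122). In brainstem 3 of the 20 had an unadjusted p under 0.05, a threshold for which no share of all genes is given here. Basigin (Bsg), the chaperone of MCT1, changed by -0.11 ± 0.11 in brainstem and -0.11 ± 0.08 in hypothalamus (SE; limma adjusted p = 0.998 and 0.590).

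Of the endothelial identity genes, some passed the test with the sign of the organic anion carriers, and most did not pass. In ozone, 6 of 14 were higher in ADREX than in sham rats in each tissue and none lower, with medians of 0.52 and 0.48 beside 0.00 and 0.01 for all genes tested. Examples in brainstem were Cd93 (1.32, limma adjusted p = 0.000316), Tie1 (0.97, limma adjusted p = 0.000239) and Kdr, the VEGF receptor (1.07, limma adjusted p = 0.00257). In sham rats ozone lowered 3 of 14 in brainstem (Tie1, Cd93, Kdr) and 2 in hypothalamus (Kdr, Emcn). Of all genes tested, 0.979% and 1.59% were called for ozone against air in sham rats, in either direction. For ADREX against sham in ozone the shares were 2.44% in brainstem and 2.24% in hypothalamus. The summed level of the 14 genes was 2888 to 3347 normalized counts in brainstem sham ozone against 3868 to 5629 in ADREX ozone, and 2189 to 2439 against 2728 to 3105 in hypothalamus. No gene of this list was at 0. The summed level of 10 microglial genes also did not overlap, at 1742 to 2009 in sham ozone against 2243 to 2349 in ADREX ozone in brainstem and 1768 to 1944 against 1968 to 2235 in hypothalamus, with 1 and 0 of 10 genes called. Of 10 myelin genes, 2 in brainstem and 5 in hypothalamus were higher in ADREX rats. Cldn5 did not pass in any of these comparisons. For ADREX against sham in ozone it changed by -0.16 ± 0.28 in brainstem and 0.24 ± 0.12 in hypothalamus (limma adjusted p = 0.881 and 0.446). The part of endothelial, microglial or myelin content in the member results was not tested.

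Cdh5, the endothelial cadherin, was kept in the list of tight junction genes although it belongs to adherens junctions. It was higher in ADREX than in sham rats in ozone, by 0.72 (limma adjusted p = 0.0362) in brainstem and 0.87 (limma adjusted p = 0.00861) in hypothalamus. None of 8 vesicle and permeability genes and none of 12 pericyte and mural genes was called in either tissue by limma in this comparison. At an unadjusted p under 0.05 there were 1 and 2 vesicle genes and 2 and 2 mural genes. The share of all genes at that threshold is not given here. In the list of Wnt and Norrin barrier signalling, 3 of 17 passed in each tissue, including the feedback inhibitor Nkd1, higher by 0.97 (limma adjusted p = 3.27e-05) and 0.98 (limma adjusted p = 0.000202). Of all genes tested, 2.44% in brainstem and 2.24% in hypothalamus passed. Glucocorticoid-induced reference genes were lower in ADREX rats in ozone for 8 of 10 in both tissues, with medians of -2.13 and -1.82. The list was chosen with results of these samples known and is not independent evidence of its direction.

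**Figure D4:**
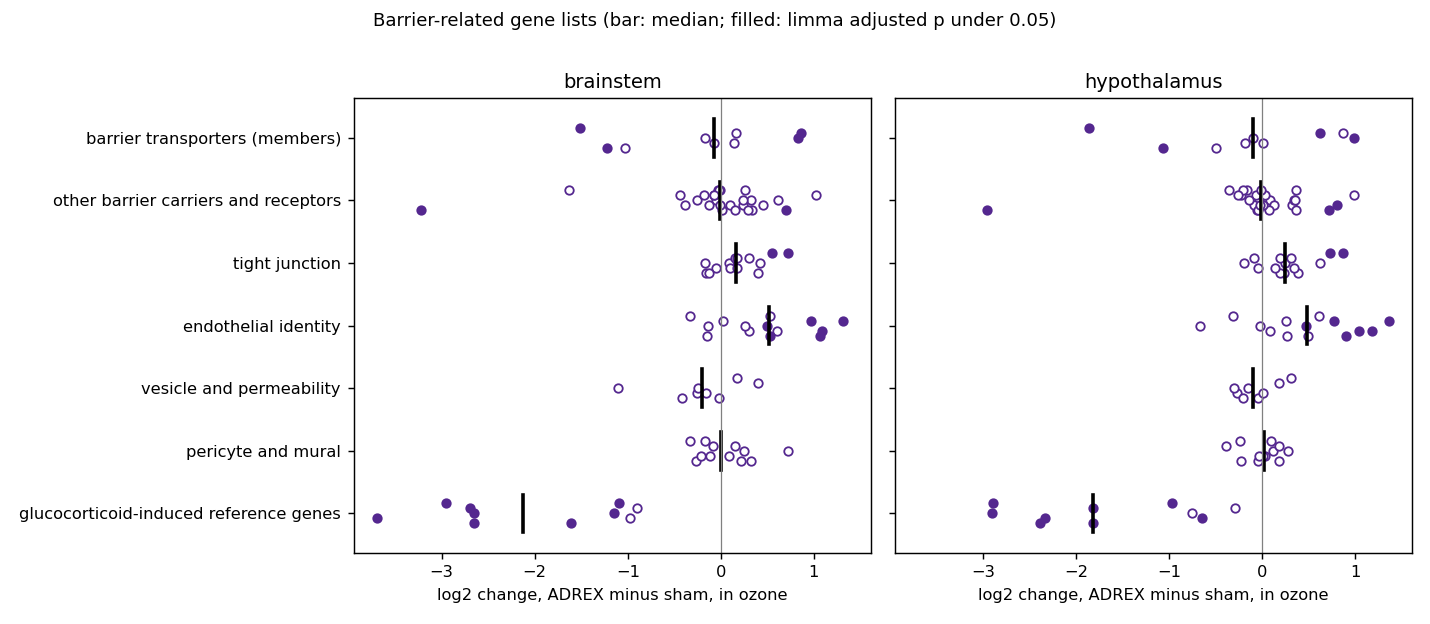
Log2 difference between ADREX and sham rats in ozone (horizontal axis) for each tested gene of 7 lists, in brainstem and hypothalamus. Points are genes, filled where the limma adjusted p is under 0.05, and bars are list medians. The transporters spread to both sides of 0, the endothelial genes have medians of 0.52 and 0.48, and the glucocorticoid-induced genes have medians of -2.13 and -1.82.

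Between tissues, every called transporter difference was lower in hypothalamus than in brainstem. In sham air 5 of 9 were called, against 31.0% of all genes: Slc16a1 (-0.96 ± 0.24, SE; limma adjusted p = 0.00277), Slc3a2 (-0.34 ± 0.09; 0.00495), Mfsd2a (-0.68 ± 0.21; 0.0138), Slco1a4 (-0.64 ± 0.21; 0.0195) and Abcg2 (-0.87 ± 0.29; 0.0203). In ADREX air 3 were called against 26.6% of all genes, namely Mfsd2a, Slc3a2 and Abcg2. In sham ozone and in ADREX ozone 1 was called, Mfsd2a, against 27.4% and 33.0%. The member shares of these last 3 comparisons were near or below the background.

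Mfsd2a was lower in hypothalamus in all 4 states, by 0.68 in sham air, 0.70 in sham ozone (limma adjusted p = 0.0123), 1.12 in ADREX air (0.000115) and 1.05 in ADREX ozone (0.000249) on the log2 scale. In each state the highest hypothalamus library was below the lowest brainstem library. The sham ozone call was lost without hypothalamus sham ozone 18 (-0.58, limma adjusted p = 0.0562), and the sham air call without brainstem sham air 2 (-0.57, limma adjusted p = 0.0546). Among the other calls, Abcg2 in sham air was lost without brainstem library 2 or 3 or hypothalamus library 3, and Slco1a4 without library 3 of either tissue, with limma adjusted p between 0.0505 and 0.0709. In ADREX air Abcg2 was lost without brainstem 65 or 67 or hypothalamus 65, 66 or 68, with limma adjusted p from 0.0520 to 0.189, and Slc3a2 without brainstem 65 or 67 or hypothalamus 65, with limma adjusted p from 0.0744 to 0.0850. In sham ozone without hypothalamus 18, Slc16a1, Abcg2 and Slco1a4 passed (limma adjusted p = 0.0207, 0.0207 and 0.000553). Slc16a1 in sham air read 1050, 927, 1829 and 1279 normalized counts in brainstem and 634, 619, 617 and 646 in hypothalamus, with no overlap. Slc7a5 did not pass in any state, with 95% intervals between -0.39 and 0.23. In sham air 4 of 14 endothelial identity genes were called, all lower in hypothalamus, a share no larger than the 31.0% of all genes. Their median log2 difference was -0.40, beside -0.0022 for all genes, and their summed level in hypothalamus was 2726 to 3058 against 3470 to 3908 in brainstem. In sham air the summed level of 10 myelin genes was 127587 to 143440 in hypothalamus against 379652 to 439274 in brainstem. That of 10 astrocyte genes was 22114 to 23550 against 35934 to 39571. The part of endothelial, myelin or astrocyte content in the member differences was not tested.

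**Figure D5:**
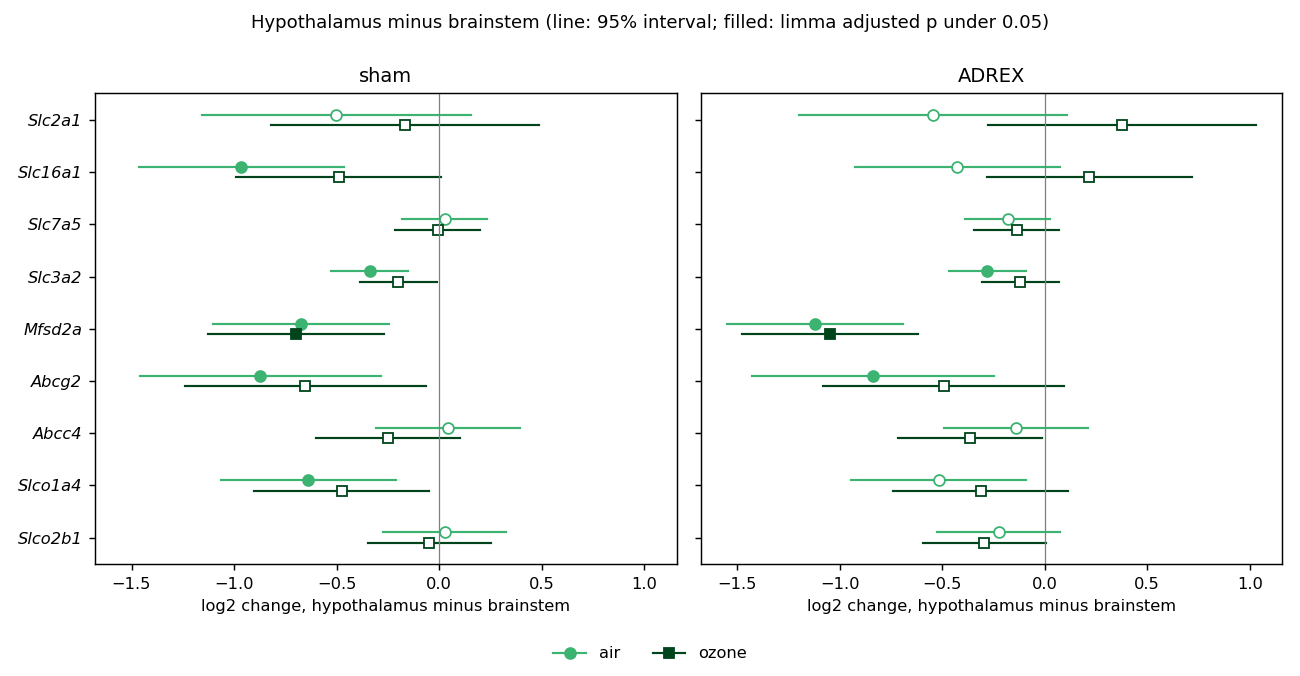
Log2 difference between hypothalamus and brainstem (horizontal axis) of each transporter in sham and ADREX rats, in air (circles) and ozone (squares). Lines are 95% intervals from limma on 32 libraries, and filled symbols have an adjusted p under 0.05. Mfsd2a is filled in all 4 states, between -0.68 and -1.12, and all filled symbols lie below 0.

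The order of group means, with neighbours often within their spread, differed between members. Mfsd2a was highest in brainstem sham ozone (800 ± 43.5 normalized counts, SD, n = 4) and then hypothalamus sham ozone (501 ± 111), both above all other libraries of the same tissue. Its next means were brainstem sham air (352 ± 56.0), ADREX ozone (288 ± 73.9) and ADREX air (268 ± 73.4), whose ranges overlapped. The lowest were hypothalamus sham air (220 ± 30.8), ADREX ozone (135 ± 9.68) and ADREX air (125 ± 49.1). From highest to lowest group the ratio was 6.37 for Mfsd2a, 3.40 for Abcg2, 2.42 for Slco1a4, 2.24 for Slc16a1, 2.18 for Slc2a1, 2.05 for Slco2b1, 1.36 for Abcc4, 1.35 for Slc3a2 and 1.15 for Slc7a5.

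As a description, correlations were taken over 32 libraries after the mean of each tissue was removed; these points share groups, libraries and depth, so no p is given. Mfsd2a ran opposite to Slco1a4 (r = -0.80) and Slco2b1 (-0.79) and with Abcg2 (0.74). With group means removed the first of these was -0.29, so it lay mostly between groups. Slc2a1 and Slc3a2 had r = 0.73 and kept 0.66 within groups. Slco1a4 and Slc16a1 had 0.63, and 0.69 within groups. These within-group values include libraries that stood apart. Brainstem ADREX ozone 81 was the lowest of its group for Slc2a1, Slc3a2, Slco1a4 and Slc16a1, and hypothalamus ADREX ozone 84 the highest for each. Hypothalamus sham ozone 18 was the highest of its group for Slco1a4 and Slc16a1. Correlations without these libraries were not computed.

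Among 14077 genes tested in both tissues, those most like Mfsd2a were the glycerol-3-phosphate dehydrogenase Gpd1 (r = 0.95), the secreted phospholipase Pla2g3 (0.95) and Gpatch4 (0.93), and the most opposite was the Ras exchange factor Rasgrp3 (-0.91). Slco2b1 was most like Cdh5 (0.89), Nkd1 (0.88) and Gdpd2 (0.86), and Slco1a4 most like the receptor gene Tlr2 (0.92), Afap1l1 (0.90) and Clec14a (0.88). Abcg2 was most like Etnppl (0.89), the connexin gene Gjb6 (0.88) and Aadat (0.86). Slc2a1 was most like Gpcpd1 (0.93), the peptide gene Apln (0.91) and Zcchc24 (0.90), and Slc16a1 most like Nkain4 (0.92). The closest genes of Slc3a2, Abcc4 and Slc7a5 had lower values: 0.81 for Slc3a2 with Atp1b3 and for Abcc4 with Fan1, and 0.69 for Slc7a5 with Rnase4.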

How the data were processed

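The authors deposited 1 table with a normalized signal (scaled read counts) for 22587 genes in 32 libraries. The submitters' processing notes name Partek, DESeq2 and the build rn6, without roles. Aligner, annotation and strand setting were not given in the sources used here. Values were whole multiples of 1 step per library (0.623 to 1.25), and dividing by it gave whole reads for 100% of values within 0.001, 6.44 to 12.4 M reads per library. No library pair of a group matched within sampling noise (48 pairs).

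Values were taken as log2(value + 1), and a log2 change on this scale understates low genes. Genes with a mean under 10 were left out, and limma 3.58.1 (R 4.3.3, mean-dependent prior variance) was fitted over all genes, with Benjamini-Hochberg adjustment within each of 15 contrasts and calls at an adjusted p under 0.05, two-sided. Contrasts within a tissue used its 16 libraries, so the 4 groups share 1 estimate of the spread; contrasts between tissues used 32. Intervals are 95%. Alternatives were edgeR 4.0.16 (quasi-likelihood) and DESeq2 1.42.0 on recovered reads, other pseudocounts, filters, scalings, weights and left-out libraries. The script was tested on simulated data.

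The members, the 18 gene lists and the motifs were chosen with earlier results of these data known. The rule for named genes was: all members; up to 4 called genes of smallest p per list and contrast; any gene of the carrier and partner lists; and the 3 genes most like each member by Pearson correlation. Cldn5 and Cdh5 are named as endothelial markers. Promoter windows were matched by symbol for 9 of the 10 members in RefSeq's table. One gene of the tight junction list is not reported here.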

Additional observations from a re-analysis of the deposited data

Results flagged for a closer look

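A gap test was applied to each member in each group of 4 libraries: the highest or lowest library was singled out when its gap to the nearest other exceeded Dixon's critical share of the group's range, at the 95% level. Of 72 combinations 8 met this, and chance gives about 1 in 20. In sham ozone 18, Slco1a4 was the highest of its group in brainstem (1137 normalized counts, next 774) and in hypothalamus (1160, next 538). In brainstem ADREX ozone 81, Abcc4 was the highest (290, next 152). In hypothalamus ADREX ozone 84, Slc16a1 was the highest (2456, next 1146). Hypothalamus sham air held the other 4: Slc2a1 was lowest in library 1 (2487, next 2735), Slc3a2 highest in library 3 (1015, next 868), and in library 2 both Abcg2 (366, next 268) and Slco2b1 (543, next 404) were highest. Libraries 18 of both tissues and hypothalamus sham air 2 were among the 4 rich in liver transcripts, whose part in these values was not tested.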

How the results depend on the processing

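For the 9 members in 15 contrasts, 3564 values were recomputed under alternatives; 3426 stayed on their side of the threshold with no called value reversed, 56 lost and 82 gained a call. All 20 calls kept their sign and 9 stayed called throughout. Mfsd2a passed in every alternative for ozone against air in sham rats (log2 change 1.12 to 1.30 in brainstem, 1.04 to 1.36 in hypothalamus) and for ADREX against sham in ozone (-1.60 to -1.29 and -2.02 to -1.73). Abcg2 passed in 15 of 28 alternatives in brainstem and 23 of 29 in hypothalamus.

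Counts of members called moved by over 1.5 times as follows; the causes were not tested. Sham ozone against air in brainstem (1 called) gave 2 with quantile normalization, 3 with sample weights, 2 with DESeq2, and 1 to 3 with single libraries left out. The same comparison in hypothalamus (1) gave 5 with sample weights, 3 with DESeq2, 2 with the compared groups alone, and 1 to 3 with single libraries left out. ADREX against sham in ozone (4 in each) gave 2 to 4 in brainstem and 1 to 5 in hypothalamus with single libraries left out, and 1 in hypothalamus with the compared groups alone. ADREX against sham in air in hypothalamus (0) gave 0 to 1. The interaction (0) gave 1, Mfsd2a, with sample weights in each tissue and with DESeq2 in brainstem, and 0 to 1 in hypothalamus with libraries left out. The adjusted p of its Mfsd2a term ranged from 0.0314 to 0.451 in brainstem and from 0.0428 to 0.803 in hypothalamus. Hypothalamus against brainstem gave, in sham air (5), 3 to 5 with libraries left out; in sham ozone (1), 3 with quantile normalization, 5 with weights and 1 to 3 with libraries left out; in ADREX air (3), 5 with the compared groups alone and 1 to 4 with libraries left out; in ADREX ozone (1), 4 with weights and 2 with DESeq2.

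Chosen after seeing the data, leaving out the 4 libraries over 2000 reads per M of liver transcripts without Tf and Itih3 gave 3 in brainstem and 2 in hypothalamus for sham ozone against air, 1 for the hypothalamus interaction, and 2 for hypothalamus against brainstem in sham ozone. A further setting, also chosen after seeing the data, left out 4 of the libraries singled out by the gap test. These were sham ozone 18 of both tissues, brainstem ADREX ozone 81 and hypothalamus ADREX ozone 84, picked by name. Hypothalamus sham air 1, 2 and 3, also singled out, were kept. The setting gave 3 and 4 for sham ozone against air, and 3, 6 and 4 for the tissue difference in sham ozone, ADREX air and ADREX ozone. The planned version with the whole liver list was run in hypothalamus, giving 2 for sham ozone against air; it was not run for brainstem or both tissues, since Tf and Itih3 are also made in brain and too few brainstem libraries remained.

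With the replicate block, hypothalamus against brainstem gave 3 in sham ozone and 2 in ADREX ozone. The shared numbers were not taken as pairs: deviations of same-numbered libraries correlated at -0.557 to 0.627, over 0.1 for 7 of 16 numbers, and 4 of 16 libraries correlated best with their own number. Summed red blood cell transcripts, however, had the same order in both tissues within sham air, ADREX air and ADREX ozone. For ADREX ozone 81, 82, 83 and 84 they read 1388, 529, 102 and 69.0 normalized counts in brainstem. In hypothalamus they read 1076, 368, 86.25 and 51.6. In sham ozone, library 17 was highest in both tissues, and the order of the others differed. Same-numbered libraries may therefore come from the same animal, and agreement between tissues may not be independent. With 4 libraries a group, the printed 95% intervals give the precision of each difference.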
